A study of Mus musculus with 12 samples.

Results

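Ketogenesis and the hepatic response to fasting were followed through 4 genes, Acat1, Bdh1, Fgf21 and Creb3l3, in primary cultured mouse hepatocytes. The genes were taken by their symbols from deposited tables of 22471 features, and all 4 were found and passed the filter on low counts in every comparison. The genes had been chosen on their values (CPM and fold changes) in these same 4 groups, so their levels and changes are given as a description, without a test. The 12 libraries fell into 4 groups of 3: Con (control), ConOA (oleic acid, OA, a dietary fatty acid that hepatocytes store as lipid droplets), BBR (benzbromarone, a uric acid-lowering drug) and BBROA (both agents together). Per the study's methods, the cells came from livers of male C57BL/6J mice digested with collagenase and purified on Percoll, and OA was given bound to albumin. The labels give no dose, exposure time or genotype. They call the replicates biological without saying whether these were separate mice or wells of one preparation, so every SD, SE and p-value below measures the spread between labelled replicates.

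Ketone bodies are made in liver mitochondria from the acetyl-CoA that fatty acid oxidation supplies. Acetoacetyl-CoA thiolase (Acat1) joins acetyl-CoA units at the start of the pathway, and at its end 3-hydroxybutyrate dehydrogenase (Bdh1) reduces acetoacetate to 3-hydroxybutyrate, the main ketone body in blood. Fgf21 is a hormone that liver secretes in fasting and in cell stress, and Creb3l3 encodes CREBH, a liver-enriched transcription factor held in the endoplasmic reticulum membrane until proteases in the Golgi release its active part. CREBH and the fatty acid sensor PPAR alpha are known to induce Fgf21 together in fasting.

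Total counts ranged from 15485498 (BBR replicate 2) to 23668371 (Con replicate 3), so 1 count was worth 0.0421 to 0.0644 CPM (the count relative to library size, here scaled by the TMM method). A count of 0 allowed a level of up to 0.126 to 0.193 CPM, a limit that covers counting error only. The 7 hepatocyte markers used summed to between 30096 and 38350 CPM in every library, Kupffer cell markers to between 22.8 and 37.0, endothelial markers to between 41.0 and 49.7 and stellate cell markers to between 18.6 and 25.9 CPM, and Lep and Retn, markers of fat cells, were at 0 in all 12. In bulk RNA such as this, fewer cells of a type and less RNA per cell cannot be told apart. The hepatocyte sum was higher in both groups with OA: 30096 to 31679 CPM in Con and 31815 to 33766 in BBR, but 35173 to 36810 in ConOA and 36100 to 38350 in BBROA. Alb made up most of this sum, with means of 28106 CPM in Con, 29614 in BBR, 32104 in ConOA and 33172 in BBROA. Single markers moved within these sums. Of the 7 hepatocyte markers, Alb, Apoa1, Tat and Ttr were called higher in ConOA than in Con and none lower. Of the 8 Kupffer cell markers, 6 were called lower in ConOA than in Con, such as Clec4f (1.11 to 0.442 CPM) and Cd5l (5.98 to 2.87). Adgre1 (2.40 to 6.36) and Marco (1.20 to 6.89) were called higher. Of all genes, 21.5% were called lower and 21.3% higher in that comparison. In BBROA against BBR, the hepatocyte markers Alb, Apoa1 and Tat were called higher and F2 lower, beside 20.1% and 18.8% of all genes. In BBROA against Con, Alb, Apoa1, Tat and Ttr were called higher and Asgr1 and Hnf4a lower, beside 21.6% and 22.2%. With BBR alone, the endothelial markers Kdr and Pecam1 and the hepatocyte marker Ttr were called higher, and the hepatocyte markers Hnf4a, Asgr1 and Tat and the Kupffer cell marker Cd5l lower. The share of counts on mitochondrial genes was 5.50% to 6.07% in Con, 5.63% to 6.28% in ConOA, 6.34% to 6.89% in BBR and 6.09% to 6.59% in BBROA, so that both groups with BBR lay above Con. The part of these differences in the values below was not tested.

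Per unit of transcript length, the 4 genes were expressed at very different levels. In Con the mean FPKM (fragments scaled by transcript length and depth, as the authors computed it) was 22.2 for Creb3l3, 10.3 for Acat1, 5.24 for Bdh1 and 1.20 for Fgf21. In BBROA the order was the same, with 61.7 for Creb3l3, 10.4 for Acat1, 1.66 for Bdh1 and 1.12 for Fgf21, so the gaps above Bdh1 were wider and the one between Bdh1 and Fgf21 narrower.

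**Figure D1:**
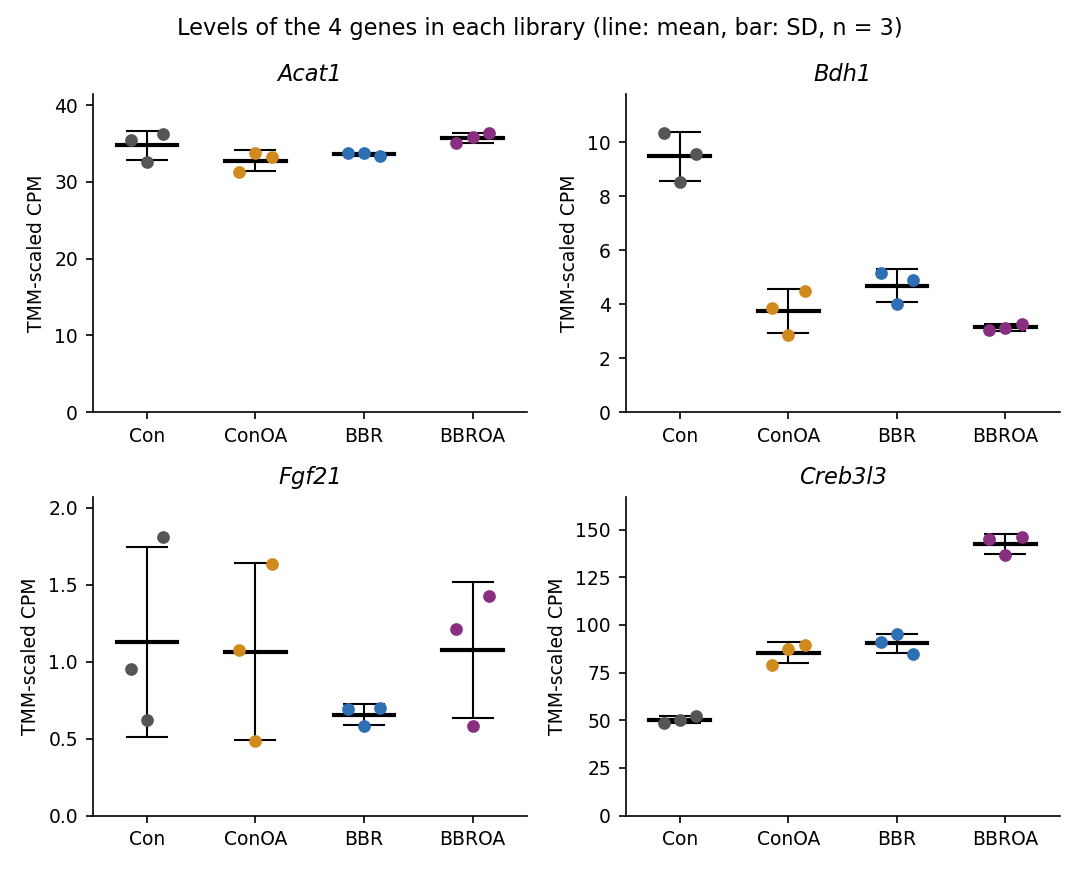
TMM-scaled CPM (y axis, from 0) of Acat1, Bdh1, Fgf21 and Creb3l3 in each of the 12 libraries, by group (x axis), with 1 point per library, a thick line at the mean and bars of 1 SD (n = 3). Creb3l3 goes from a mean of 50.3 in Con to 142.6 in BBROA without overlap between those groups, Bdh1 goes from 9.48 to 3.14, Acat1 stays between 31.2 and 36.3 in every library, and Fgf21 spreads from 0.487 to 1.81 with overlapping groups.

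Acat1 (ENSMUSG00000032047, chr9:53580522-53610382 on the minus strand of GRCm38, 12 exons in its longest transcript) was the steadiest of the 4. Its level was 35.4, 32.6 and 36.2 CPM in Con, 31.2, 33.8 and 33.2 in ConOA, 33.7, 33.7 and 33.4 in BBR, and 35.0, 35.9 and 36.3 in BBROA. No group stood apart: in the order ConOA, BBR, Con, BBROA, with means of 32.7 ± 1.35, 33.6 ± 0.218, 34.8 ± 1.88 and 35.7 ± 0.670 CPM (SD, n = 3), each group overlapped its neighbour. The fitted log2 fold change was -0.042 (SE 0.061) for BBR against Con and -0.079 (SE 0.065) for ConOA against Con. It was 0.12 (SE 0.060) for BBROA against ConOA and 0.087 (SE 0.054) for BBROA against BBR, the comparisons in which the libraries of the groups did not overlap. The last value was 0.045 when libraries were scaled by their upper quartile.

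Bdh1 (ENSMUSG00000046598, chr16:31422280-31458901 on the plus strand, up to 8 exons) was lower with either agent and lowest with both. In Con it stood at 10.3, 8.54 and 9.56 CPM, a mean of 9.48 ± 0.899 (SD, n = 3). With BBR it was 5.15, 3.99 and 4.90 CPM, with OA 3.85, 2.87 and 4.49 CPM, and with both 3.04, 3.12 and 3.28 CPM. Every treated library lay under every Con library. Among the treated groups, BBR overlapped ConOA and ConOA spanned BBROA, whereas all BBR libraries were above all BBROA libraries.

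As a share of the Con mean, Bdh1 was at 49.4% in BBR, 39.4% in ConOA and 33.2% in BBROA. The log2 fold change was -0.996 (SE 0.13) for BBR against Con, -1.33 (SE 0.15) for ConOA against Con and -1.60 (SE 0.13) for BBROA against Con. The second agent made a smaller difference than the first: BBROA against BBR gave -0.59 (SE 0.16) and BBROA against ConOA -0.26 (SE 0.19). The last value ranged from -0.42 without ConOA replicate 2 to -0.094 without ConOA replicate 3. The interaction of BBR and OA is the BBR effect in OA-loaded cells minus that in cells without OA. It was 0.75 (SE 0.22) on the log2 scale. The fitted fall of Bdh1 with both agents was thus smaller than the sum of the separate falls, a description that was not tested. The antisense gene Gm15743 overlaps Bdh1 on the other strand, and since the sources used here do not say whether counting used the strand, reads of that gene could not be told apart from those of Bdh1.

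The sum of a marker list had the same order of groups as the Bdh1 means, though its single genes did not all follow. The summed level of 5 bile duct cell (cholangiocyte) markers was 590 to 722 CPM in Con, 391 to 421 in BBR, 242 to 272 in ConOA and 199 to 240 in BBROA. Spp1, a secreted matrix protein, made up most of that sum, with means of 613, 343, 204 and 166 CPM in the same order. The keratin Krt7 was at 0 in every Con library and averaged at most 0.0916 CPM elsewhere. Sox9 was called higher with BBR alone and with OA alone, and Epcam and Krt19 were called higher with BBR alone. Epcam and Sox9 were also called higher in BBROA than in Con. Sox9 had means of 32.3 CPM in Con, 48.8 in BBR, 48.6 in ConOA and 42.6 in BBROA. The part of other cells in the Bdh1 values was not tested.

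The wider list of ketone body synthesis followed here held 10 genes besides Acat1 and Bdh1, of which 9 were tested. Against Con, BBR raised 3 and lowered 5, beside 13.2% and 14.5% of all genes tested. Those that rose were the beta-oxidation enzymes Acaa2, Hadha and Hadhb, and those that fell were the cytosolic thiolases Acat2 and Acat3, Hadh, and the mitochondrial deacylases Sirt3 and Sirt5. In ConOA against Con, 1 rose (Acat2) and 5 fell, namely Bdh2, Acaa2, Hadh, Hadha and Hadhb, beside 21.3% and 21.5% of all genes. In BBROA against ConOA, 4 rose (Acaa2, Hadh, Hadha and Hadhb) and 1 fell (Acat3), beside 1.95% and 2.63% of all genes. The median log2 fold change of the list was -0.21, -0.26 and 0.15 in these comparisons, beside -0.00085, -0.0060 and -0.00031 over all genes tested. Acat3 showed the largest fall with BBR on this list, -0.93 (SE 0.057, adjusted p = 1.79e-08) without OA and -0.32 (SE 0.049, adjusted p = 0.00174) with it, both from edgeR's quasi-likelihood test with Benjamini-Hochberg adjustment over all genes tested, as for every adjusted p below. Acat2 and Acat3 are close copies of each other, so the split of reads between them is uncertain.

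Use and export of ketone bodies were represented by 8 genes, 7 of them tested. Among these, 3 rose and 2 fell (Aacs and Slc16a7) in BBR against Con, beside 13.2% and 14.5% of all genes. Oxct1, the transferase that lets tissues other than liver burn ketone bodies and that hepatocytes normally keep low, rose from 11.3 ± 2.25 CPM in Con to 20.2 ± 0.606 in BBR (SD, n = 3), which is 0.85 in log2 terms (SE 0.11, adjusted p = 2.36e-05). The monocarboxylate transporters Slc16a3, known chiefly for lactate export, and Slc16a6, a transporter of 3-hydroxybutyrate, rose by 0.91 (SE 0.049, adjusted p = 4.80e-09) and 0.32 (SE 0.072, adjusted p = 0.00344). In OA-loaded cells BBR raised none of the 7 and lowered 1, beside 1.95% and 2.63% of all genes. Aacs, which returns acetoacetate to lipid synthesis in the cytosol, changed by -0.25 (SE 0.054, adjusted p = 0.0188). That call was lost without BBROA replicate 1 (adjusted p = 0.0789) or replicate 2 (0.0790). Oxct1 was at 13.1 ± 2.32 CPM in ConOA and 16.1 ± 0.187 in BBROA (SD, n = 3), and it passed without ConOA replicate 2 (0.44, adjusted p = 0.0358).

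**Figure D2:**
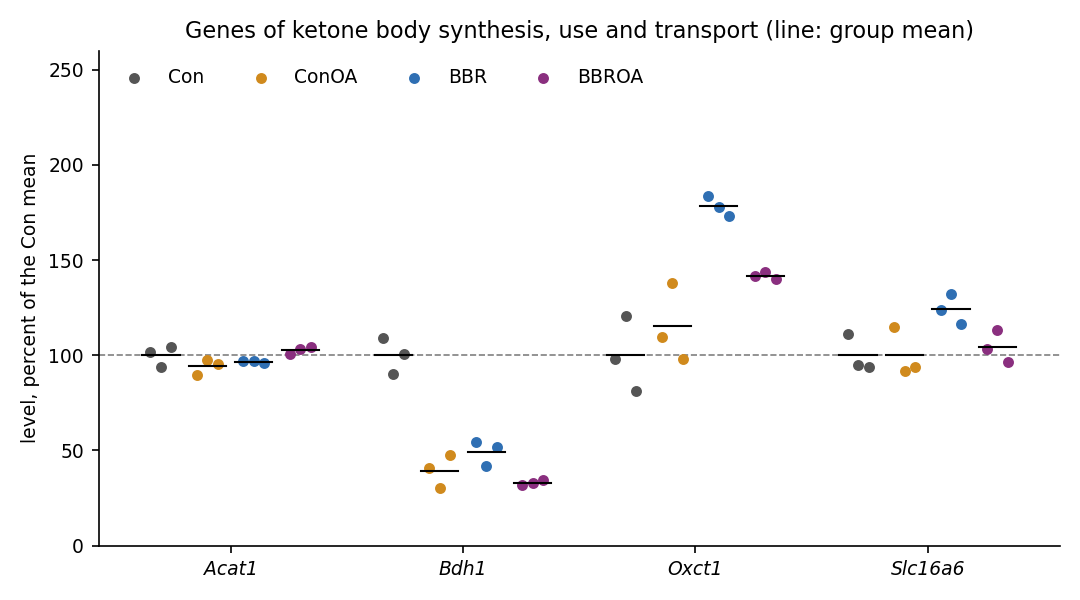
Levels of Acat1, Bdh1, Oxct1 and Slc16a6 (x axis) as a percent of the mean of the Con libraries (y axis, from 0), with 1 point per library in the colour of its group and a line at each group mean (n = 3). In BBR the means of Acat1 and Bdh1 are at 96.7% and 49.4% of Con, and those of Oxct1 and Slc16a6 at 178% and 124%.

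Fgf21 (ENSMUSG00000030827, chr7:45613886-45615490 on the minus strand, 3 exons) was low throughout. It had 19, 13 and 43 counts in Con, 19, 9 and 32 in ConOA, 15, 9 and 13 in BBR, and 24, 11 and 24 in BBROA. In TMM-scaled CPM these were 0.953, 0.620 and 1.81 in Con, 1.08, 0.487 and 1.63 in ConOA, 0.690, 0.579 and 0.699 in BBR, and 1.21, 0.581 and 1.43 in BBROA. The groups overlapped in every comparison. In CPM, replicate 2 was the lowest and replicate 3 the highest library of each group, and each BBR library lay under the Con library of the same number. The SEs below do not take this shared order into account. The spread in Con was wider than counting error alone: the exact 95% Poisson interval was 0.330 to 1.06 CPM for replicate 2 and 1.31 to 2.44 CPM for replicate 3.

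The means of Con, ConOA and BBROA were 1.13 ± 0.614, 1.07 ± 0.574 and 1.07 ± 0.441 CPM (SD, n = 3), so none of them differed from the others beyond the spread. BBR alone was at 0.656 ± 0.0668 CPM, under those means but within their range. Its log2 fold change against Con was -0.78 (SE 0.38), and without Con replicate 3 it was -0.24. In the other direction, BBROA against BBR gave 0.68 (SE 0.36). ConOA against Con gave -0.091 (SE 0.42), BBROA against Con -0.11 (SE 0.39) and BBROA against ConOA -0.012 (SE 0.41). The first of these turned positive without Con replicate 3 or ConOA replicate 2, the second without Con replicate 3 or BBROA replicate 2, and the last without ConOA replicate 3 or BBROA replicate 2.

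The promoter of Fgf21, 250 bases before its start in RefSeq (GRCm38.p6, chr7:45615491-45615740, minus strand), is shown because regulators known to act through it moved in these cells while its own level did not separate the groups. In capitals are TTGCATCA, the element that C/EBP and ATF factors such as ATF4 and CHOP recognise, then CGTCA, the cAMP response core TGACG read on the other strand, and then CACGTG, the E-box.

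Fgf21: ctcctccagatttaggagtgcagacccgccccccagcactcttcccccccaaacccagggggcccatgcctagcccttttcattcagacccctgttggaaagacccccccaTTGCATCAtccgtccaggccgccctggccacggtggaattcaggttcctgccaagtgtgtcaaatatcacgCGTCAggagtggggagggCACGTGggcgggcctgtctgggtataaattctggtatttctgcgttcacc

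The first letter of TTGCATCA lay 139 bases before the start, that of CGTCA 68 bases and that of CACGTG 50 bases, and TATAAA began 28 bases before it. On either strand, TTGCATCA occurs in 260 of 32851 mouse promoter windows of this length (0.791%), TGACG in 17.8%, CACGTG in 6.02% and TATAAA in 12.4%. AGGTCA, the core site of nuclear receptors, was searched for as well and is absent from this window. It occurs in 14% of windows. The matches describe the letters and show no binding.

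Of 15 genes listed as regulators of Fgf21 transcription, all were tested. With OA alone, 5 rose (Ppara, Atf4, Ddit3, Atf5 and Rora) and 6 fell (Ppargc1a, Pparg, Rxra, Mlxipl, Nr1h4 and Nr1d1), which is 33.3% and 40.0% of the list beside 21.3% and 21.5% of all genes. Atf4, the main transcription factor of the integrated stress response, went from 227 ± 3.69 CPM in Con to 343 ± 1.22 in ConOA (SD, n = 3), which is 0.60 in log2 terms (SE 0.045, adjusted p = 1.49e-07). Ddit3, which encodes CHOP, rose by 0.83 (SE 0.086, adjusted p = 3.29e-06), and Ppara, the receptor through which fatty acids induce ketogenic genes and Fgf21, rose by 0.62 (SE 0.12, adjusted p = 8.71e-04). Ppargc1a, a coactivator of fasting genes, fell by 0.92 (log2, SE 0.21, adjusted p = 0.00291), and Nr1d1, a repressor of the circadian clock, fell by 1.25 (SE 0.11, adjusted p = 6.85e-07).

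With BBR alone, 1 of the 15 rose and 5 fell (6.67% and 33.3%, beside 13.2% and 14.5% of all genes). Ddit3 rose by 0.49 (SE 0.087, adjusted p = 4.90e-04), and among those that fell was the bile acid receptor Nr1h4, which fell by 0.94 (SE 0.093, adjusted p = 1.82e-06). Atf4 and Ppara had values of 0.12 (SE 0.046, adjusted p = 0.0746) and 0.078 (SE 0.16, adjusted p = 0.752), and Atf4 passed when BBR replicate 1 was left out (adjusted p = 0.0335). In OA-loaded cells BBR raised Rora only, out of the 15, and lowered none, beside 1.95% and 2.63% of all genes. In BBR-treated cells OA raised 8 and lowered 3 of the 15, beside 20.1% and 18.8% of all genes. The call of Ppara among the 8 (0.43, adjusted p = 0.0447) was lost by DESeq2 (adjusted p = 0.0640), with upper quartile scaling (0.0672) or scaling by library size only (0.0547), and without BBR replicate 2 or 3 or BBROA replicate 1 or 3 (adjusted p up to 0.175).

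**Figure D3:**
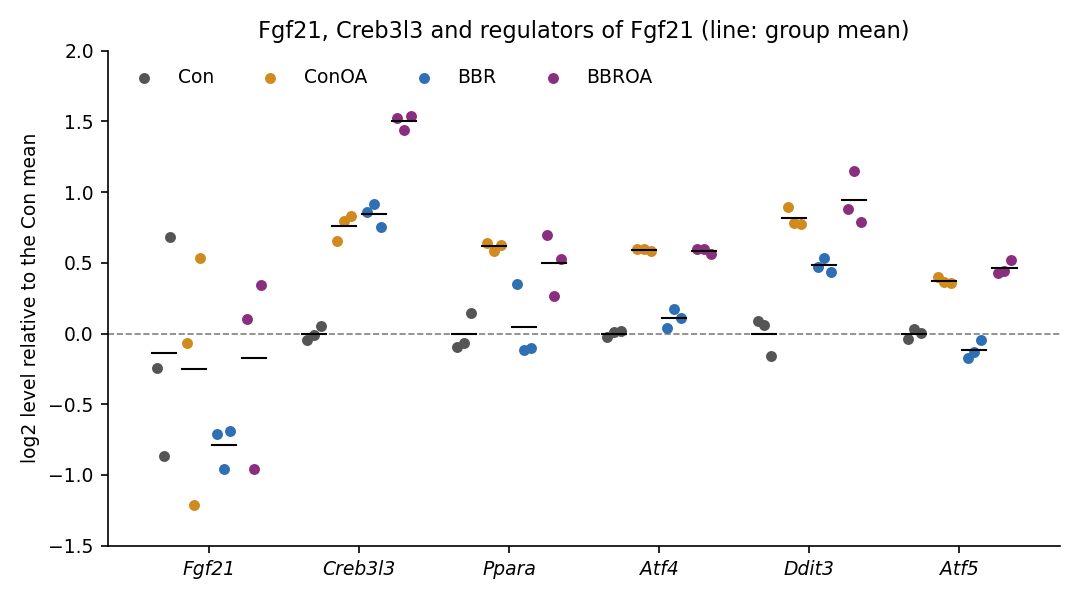
Level of Fgf21, Creb3l3 and the regulators Ppara, Atf4, Ddit3 and Atf5 in each library as the log2 ratio to the mean of the Con libraries (y axis), 1 point per library, with a line at the mean of each group's log2 values (n = 3). Fgf21 libraries range from -1.21 to 0.68 with all groups overlapping, while the ConOA libraries of Atf4 lie between 0.59 and 0.60 and the BBROA libraries of Creb3l3 between 1.44 and 1.54.

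On the receiving side, 10 receptors, relatives and turnover genes of FGF21 were listed, and 6 were tested in each comparison of 2 groups. OA alone raised 2 of these 6 (Fgfr3 and Fgfr4) and lowered 4 (Klb, Fgfr1, Fgfr2 and Fgf1), beside 21.3% and 21.5% of all genes. BBR alone raised 1 (Fgf1) and lowered 1 (Fgfr4), beside 13.2% and 14.5%. Added to BBR, OA raised 2 (Fgfr3 and Fgfr4) and lowered 3 (Klb, Fgfr1 and Fgf1), beside 20.1% and 18.8%. Added to OA, BBR raised none and lowered none, beside 1.95% and 2.63%. Klb, the coreceptor that FGF21 needs, was at 4.16, 4.77 and 5.39 CPM in Con, 1.47, 1.95 and 2.04 in ConOA, 4.97, 7.53 and 6.62 in BBR, and 2.48, 2.80 and 2.20 in BBROA. Libraries with OA were all lower than libraries without it. The log2 fold change with OA was -1.38 (SE 0.19, adjusted p = 4.35e-05) without BBR and -1.33 (SE 0.19, adjusted p = 6.27e-05) with it. Fgfr4, the main FGF receptor of hepatocytes, fell with BBR alone from 42.8 ± 3.49 to 29.0 ± 2.26 CPM (SD, n = 3), a log2 value of -0.55 (SE 0.073, adjusted p = 3.09e-05). It rose with OA by 0.45 (SE 0.065, adjusted p = 7.21e-05) without BBR and 0.88 (SE 0.066, adjusted p = 1.71e-07) with it.

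Creb3l3 (ENSMUSG00000035041, chr10:81084324-81098874 on the minus strand, up to 12 exons) was the highest of the 4 genes and had the clearest steps. It stood at 48.7, 50.1 and 52.3 CPM in Con, 79.2, 87.5 and 89.6 in ConOA, 91.1, 95.0 and 84.9 in BBR, and 144.9, 136.7 and 146.2 in BBROA. Each agent alone put all its libraries above Con, both together put all libraries above either agent alone, and ConOA and BBR overlapped. The means were 50.3 ± 1.81, 85.4 ± 5.50, 90.4 ± 5.11 and 142.6 ± 5.18 CPM (SD, n = 3), which set ConOA at 170%, BBR at 180% and BBROA at 283% of Con.

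The steps of Creb3l3 were close to equal on the log2 scale. BBR gave 0.85 (SE 0.054) without OA and 0.74 (SE 0.055) with it, and OA gave 0.77 (SE 0.058) without BBR and 0.66 (SE 0.049) with it. Both agents against Con gave 1.50 (SE 0.048). The interaction, which sets the joint change against the sum of the separate ones, was -0.10 (SE 0.078) and was not tested. Leaving out single libraries moved the joint change only between 1.48 and 1.53. The comparisons share control libraries, so their values are not independent of each other.

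The upstream promoter that RefSeq gives Creb3l3 (GRCm38.p6, chr10:81098873-81099122, minus strand) is set beside that of Fgf21 because Creb3l3 had the largest rises among the 4 genes in each comparison with Con. It held none of the 5 motifs searched, which were those named above. It is therefore printed without capitals.

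Creb3l3: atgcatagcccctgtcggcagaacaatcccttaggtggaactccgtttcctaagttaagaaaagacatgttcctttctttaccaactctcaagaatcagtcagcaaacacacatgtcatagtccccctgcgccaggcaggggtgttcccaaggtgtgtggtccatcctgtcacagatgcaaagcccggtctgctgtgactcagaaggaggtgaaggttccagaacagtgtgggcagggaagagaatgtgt

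That no match was found says only that these letters are absent from this window. The window of an internal start of Creb3l3 in RefSeq (chr10:81092592-81092841) held TGACG and AGGTCA and is not printed. RefSeq promoters were matched for 3 of the 4 genes: Bdh1, Fgf21 and Creb3l3.

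**Figure D4:**
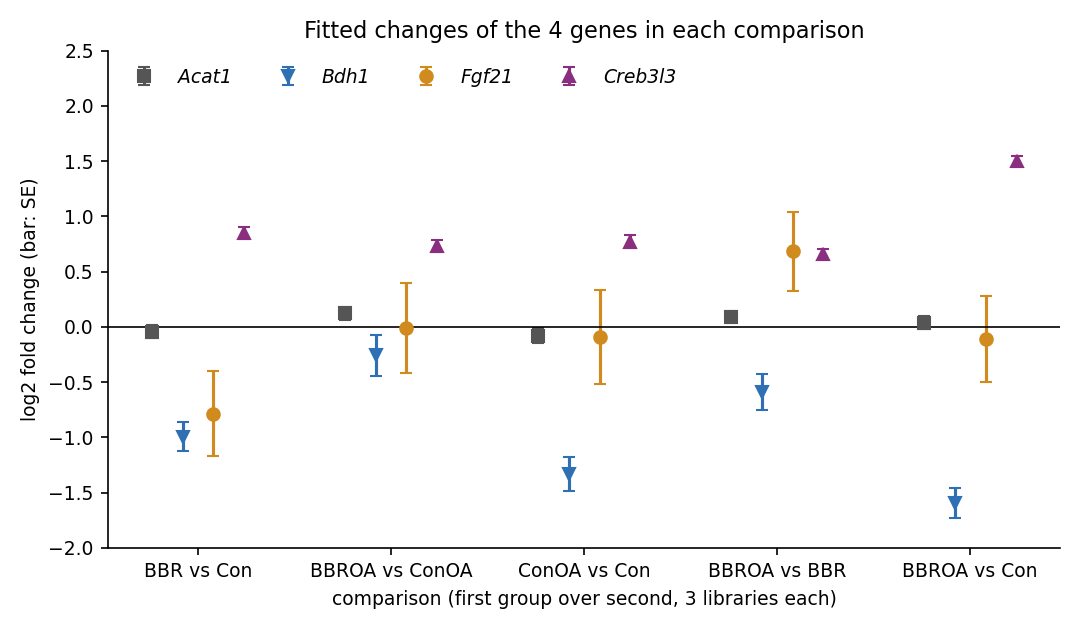
Fitted log2 fold change (y axis, bars of 1 SE) of the 4 genes in the 5 comparisons of 2 groups (x axis, first group over second, 3 libraries each). Creb3l3 lies between 0.66 and 1.50 in all 5, Bdh1 between -1.60 and -0.26, Acat1 within 0.12 of 0, and Fgf21 has the widest bars, with an SE of up to 0.42.

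The 4 genes differed in how closely their replicates lay together. The coefficient of variation over the 3 libraries of a group was 0.647% to 5.40% for Acat1, 3.60% to 6.43% for Creb3l3, 3.89% to 21.9% for Bdh1 and 10.2% to 54.4% for Fgf21. Fgf21, with the fewest counts, varied most. Ranked by the size of the fitted change, whichever its direction, 2.08% of all tested genes changed by more than Creb3l3 in BBROA against Con and 1.84% by more than Bdh1, but 68.8% by more than Fgf21 and 89.2% by more than Acat1. In BBR against Con, 3.82% of genes changed by more than Creb3l3, 2.44% by more than Bdh1, 4.71% by more than Fgf21 and 83.2% by more than Acat1. In BBROA against ConOA, 1.68% changed by more than Creb3l3 and 15.2% by more than Bdh1. Since the 4 genes were chosen on values of these groups, these shares are a description and no test.

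The relatives and processing factors of CREBH numbered 8. With OA alone, of 8 tested, the related factor Creb3l2 and the protease gene Mbtps2 were called higher and 1 lower (Mbtps1), beside 21.3% and 21.5% of all genes. Mbtps1, which encodes the site-1 protease that makes the first cut in CREBH, fell from 71.0 ± 3.99 CPM in Con to 58.1 ± 1.09 in ConOA (SD, n = 3), which is -0.28 in log2 terms (SE 0.055, adjusted p = 8.37e-04). With BBR alone, of 7 tested, none was higher and 1 lower (Creb3), beside 13.2% and 14.5% of all genes. Mbtps1 had a value of -0.031 (SE 0.051, adjusted p = 0.699). In BBROA against ConOA none of the 8 tested passed in either direction at an adjusted p under 0.05, beside 1.95% and 2.63% of all genes. In BBROA against BBR, 4 of 6 tested rose (Creb3, Creb3l2, Mbtps2 and Sec24c) and none fell, beside 20.1% and 18.8%. In BBROA against Con, 3 of 8 rose (Creb3, Creb3l2 and Sec24c, by 0.21, 0.59 and 0.13), beside 21.6% of all genes, and 1 fell, beside 22.2%. The latter was Mbtps1, lower by a log2 value of -0.16 (SE 0.051, adjusted p = 0.0202), a call that was lost by DESeq2 (adjusted p = 0.0582) and without Con replicate 2 (0.124), BBROA replicate 1 (0.0627) or BBROA replicate 2 (0.0731).

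Genes known as CREBH targets, 12 in number, did not all follow Creb3l3. In ConOA against Con, 7 rose and 3 fell of 12 tested, beside 21.3% and 21.5% of all genes. The median log2 fold change was 0.40 beside -0.0060 over all genes. In BBR against Con, where Creb3l3 was higher by 0.85, 3 rose and 5 fell, beside 13.2% and 14.5% of all genes. The median there was -0.23 beside -0.00085. In BBROA against BBR, 8 rose and 2 fell, beside 20.1% and 18.8% of all genes, with a median of 0.86. In BBROA against ConOA 4 rose and 1 fell of 11 tested, beside 1.95% and 2.63%, with a median of 0.16. Several of these targets are also acute-phase or glucose-producing genes, and the part of other inducers in their values was not tested.

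The lipid-handling targets differed among themselves. Apoa5 had means of 147 CPM in Con, 78.6 in ConOA, 119 in BBR and 107 in BBROA, and Apoc2 of 23.3, 55.1, 19.0 and 51.4 in the same order. Both were called lower with BBR alone, and with OA alone Apoa5 was called lower and Apoc2 higher. Apoa4, an apolipoprotein of triglyceride-rich particles, went from 1397 ± 189 CPM in Con to 2067 ± 199 in ConOA, 1639 ± 187 in BBR and 2315 ± 238 in BBROA (SD, n = 3). It rose with OA by 0.57 (SE 0.088, adjusted p = 1.28e-04), and its value with BBR was 0.24 (SE 0.088, adjusted p = 0.0548), which passed with no filter on low counts (adjusted p = 0.00445) and without BBR replicate 1 (0.00686) or Con replicate 3 (0.0360). Cidec, a lipid droplet protein, rose with BBR by 1.08 (SE 0.15, adjusted p = 6.74e-05) and by 0.89 in OA-loaded cells (SE 0.087, adjusted p = 3.27e-05), and BBROA exceeded Con by 1.89 (SE 0.11, adjusted p = 6.22e-10).

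The acute-phase protein Crp rose with OA by 1.48 (SE 0.061, adjusted p = 4.66e-10) and fell with BBR alone by 0.62 (SE 0.073, adjusted p = 1.04e-05). G6pc, the last enzyme of glucose release, fell with BBR alone by 1.03 (SE 0.22, adjusted p = 0.00199), and its value was -0.64 without Con replicate 3.

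Fasting signalling was covered by 13 genes, all tested. In BBR against Con, 3 rose (Cpt1a, Lpin1 and Pnpla2) and 5 fell, beside 13.2% and 14.5% of all genes. In BBROA against ConOA, 2 rose (Cpt1a and Pnpla2) and none fell, beside 1.95% and 2.63%. Cpt1a, the gate for fatty acid entry into mitochondria, was at 63.6 ± 5.88 CPM in Con, 79.5 ± 6.55 in ConOA, 91.5 ± 5.94 in BBR and 137 ± 4.29 in BBROA (SD, n = 3), the same order of groups as Creb3l3. Its log2 fold change with BBR was 0.54 (SE 0.065, adjusted p = 1.25e-05) without OA and 0.79 (SE 0.059, adjusted p = 2.58e-06) with it. Gcgr, the glucagon receptor, fell with BBR by 1.53 (SE 0.093, adjusted p = 1.68e-08) and with OA by 1.30 (SE 0.12, adjusted p = 1.13e-06).

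Over all 7 lists, 76 genes other than the 4 were followed. The lists were chosen with earlier results of these data known, so their shares are a description and no test of the pathway. In BBR against Con, 14 rose and 24 fell of 69 tested (20.3% and 34.8%, beside 13.2% and 14.5% of all genes). In BBROA against ConOA, 11 rose and 3 fell of 69 (15.9% and 4.35%, beside 1.95% and 2.63%). In ConOA against Con, 23 rose and 23 fell of 70 (32.9% each, beside 21.3% and 21.5%). In BBROA against BBR, 31 rose and 17 fell of 68 (45.6% and 25%, beside 20.1% and 18.8%), and in BBROA against Con 27 rose and 25 fell of 70 (38.6% and 35.7%, beside 21.6% and 22.2%). The interaction passed in 17 genes upward and 3 downward of 71 (23.9% and 4.23%, beside 6.87% and 5.31%), in 10 and 2 without ConOA replicate 2, BBR replicate 2 or BBROA replicate 3, and in 11 and 2 without BBROA replicate 1.

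The 4 genes did not share a pattern. Likeness was measured as the root mean square difference of log2 CPM over the 12 libraries after each gene was centred on its mean, among 9714 genes of at least 5 CPM. Bdh1 and Creb3l3 were 1.13 apart, and 99.4% of genes were closer to Creb3l3 than Bdh1 was. Genes closer to Acat1 than its nearest fellow, Creb3l3, made up 97.4%. Seen from the other side, 38.7% of genes were closer to Creb3l3 than Acat1 was. That share was 42.0% for Bdh1 and 25.2% for Fgf21. The genes most like Creb3l3 were Acot4, a peroxisomal acyl-CoA thioesterase (0.135), 8430408G22Rik (0.182) and the stress factor Atf3 (0.191). Acot4 had means of 9.35, 14.9, 14.8 and 23.4 CPM in Con, ConOA, BBR and BBROA.

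The genes most like Bdh1 were Cd1d1, a lipid antigen-presenting molecule (0.183), the matrix gene Fbln2 (0.187) and the water channel Aqp8 (0.193). Cd1d1 had means of 53.1, 23.1, 28.2 and 20.1 CPM in the same order. Closest to Fgf21 were G6pc (0.364), the mitochondrial carrier Slc25a47 (0.395) and Lrrc28 (0.455). G6pc, like Fgf21, had its lowest mean in BBR, with 13.5, 13.3, 6.57 and 12.5 CPM. Closest to Acat1 were Becn1 (0.0407), Hibadh (0.0416) and Igsf5 (0.0445). When genes were also scaled to the same SD, 1 of the 3 names was kept for Creb3l3 (Acot4) and 1 for Acat1 (Igsf5), and none for Bdh1 or Fgf21.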

How the data were processed

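Total RNA of 12 hepatocyte cultures was enriched for polyadenylated transcripts, primed randomly and sequenced on an Illumina instrument. Per library the authors deposited estimated counts and FPKM values for 22471 features, 2862 of them with a fractional count in at least 1 library, which were rounded to whole numbers here. The submitters' notes name build mm10. Aligner, counter and annotation are not given in the sources used here. Coordinates come from GENCODE release M21 (GRCm38), which held 99.71% of the 21911 Ensembl identifiers. No library was a copy of another. Groups and replicate numbers came from the titles.

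Each pair of groups was fitted on its 6 libraries in edgeR 4.0.16 (R 4.3.3): filterByExpr (minimum count 10), TMM scaling, and the quasi-likelihood test with Benjamini-Hochberg adjustment over all genes tested. The interaction used all 12 libraries. SEs came from the F statistic. The fits were tested on simulated data with the same spread for all genes, which says nothing on small changes or low counts. Alternatives were DESeq2 1.42.0, other scalings, no filter, 1 joint fit, a replicate block and leaving out each library.

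The 4 genes and the 7 gene lists were chosen with earlier results of these data known. Named were a fixed set of list genes, the 3 largest rises and falls per fit among called list genes of at least 5 CPM, and the 3 genes most like each of the 4. Some genes of the fixed set are not reported here and were left out of the lists. Other list genes named beside counts, and Atf5 in the plot of regulators, were chosen after their values were seen.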

Additional observations from a re-analysis of the deposited data

Results flagged for a closer look

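For 9 of the listed genes named by the rule, the BBR effect differed between cells with and without OA (interaction of BBR and OA, edgeR's quasi-likelihood test on all 12 libraries, Benjamini-Hochberg adjusted p under 0.05, log2 scale). It was positive for Hamp (1.42), Gcgr (1.08), Nr1h4 (1.04), Acat3 (0.62), Crp (0.48) and Fgfr4 (0.44), and negative for Slc16a3 (-0.80), Lpin1 (-0.68) and Oxct1 (-0.54). For Hamp, BBR went with a lower level without OA (169 in Con, 130 CPM in BBR) and a higher one with it (142 in ConOA, 294 CPM in BBROA). For Slc16a3 the means were 151 CPM in Con, 282 in BBR, 249 in ConOA and 268 in BBROA, so the rise with BBR was seen without OA. The Oxct1 value (adjusted p = 0.0450) was lost when most single libraries were left out, with an adjusted p of up to 0.136 without ConOA replicate 2. Groups of 3 libraries were not searched for outlying samples.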

How the results depend on the processing

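No call of a named list gene turned its direction under any alternative run. Of the 4 genes, Fgf21 changed sign in ConOA against Con (-0.55 to 0.46), BBROA against Con (-0.39 to 0.44) and BBROA against ConOA (-0.36 to 0.46) and Acat1 in BBROA against Con (-0.0063 to 0.070) as single libraries were left out, and Creb3l3 and Bdh1 kept their signs there in every comparison. Without Con replicate 3 the Fgf21 change for BBR against Con was -0.24, and over all libraries left out in turn it ranged from -1.07 to -0.24. Acat1 in BBROA against BBR was 0.045 with upper quartile scaling. Calls in BBROA against ConOA (563) ranged from 216 to 632 with 1 library left out, and those of the interaction (1551) from 1027 to 1679, with 12 to 19 list genes against 20. Upper quartile scaling moved the split of calls to 2077 higher and 3216 lower in ConOA against Con (2643 and 2668 otherwise), and to 1976 and 2870 in BBROA against BBR (2496 and 2330 otherwise). Over all genes, deviations of same-numbered libraries correlated by -0.062 to 0.16, and those of libraries with different numbers by -0.16 to 0.12. In no comparison was every same-numbered pair over 0.1, and the main fits treated the samples as unpaired. These values do not settle whether the numbers pair the samples. Single genes did order alike: replicate 2 was lowest for Fgf21 and G6pc and replicate 1 for Apoa4 in all 4 groups. As a hint from the data only, every library correlated best with its own number in BBROA against BBR (6 of 6), and 2 to 5 of 6 did in the other comparisons. With a replicate block calls rose in every comparison, to 1333 in BBROA against ConOA (578 higher, 755 lower), and by edgeR's quasi-likelihood test these named list genes passed that had not: in BBR against Con Klb (0.41, adjusted p = 0.0222), Apoa4 (0.24, 7.64e-05) and Atf4 (0.12, 0.0382), in BBROA against ConOA Apoa4 (0.16, 0.0103), in ConOA against Con Oxct1 (0.22, 0.0376), in BBROA against BBR Mbtps1 (-0.12, 0.0487), and in the interaction Cpt1a (0.26, 0.0227) and Ddit3 (-0.35, 0.0325). Fgf21 had 9 to 43 counts a library.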
